A study of Mus musculus with 14 samples.

Results

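The AP-1 and early growth response transcription factors were followed here through 10 genes, Fos, Fosb, Fosl2, Jun, Junb, Jund, Atf3, Egr1, Egr2 and Egr3, out of 21444 genes counted. They were matched by gene symbol and taken for what the genes encode, not for their values. The cells were macrophages grown from C57BL/6 mouse bone marrow in medium with 20% L929-conditioned medium. Culture lasted 6 days by the growth protocol and 7 days by the series design. Wild type (WT) cells were ELAVL1f/f, carrying the floxed gene for the RNA-binding protein ELAVL1 without a recombinase. Knockout (KO) cells were ELAVL1f/f, LysM-Cre, in which Cre sits in the Lyz2 gene and acts in myeloid cells, so cells without active Cre can remain in a culture. Neither the age of the mice nor any pooling of mice is given. The data used were 4 WT and 4 KO poly(A) mRNA libraries numbered 1 to 4 in each genotype, 4 small RNA libraries (WT 1, WT 2, KO 3 and KO 4), and 1 AGO2 PAR-CLIP library per genotype.

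AP-1 is a dimer of basic leucine zipper proteins. JUN proteins pair with each other or with FOS and ATF proteins, whereas FOS proteins need a partner. The EGR proteins are zinc finger factors that bind GC-rich promoter sequences. Genes of both families are classic immediate early genes, switched on within minutes of a growth factor or bacterial signal through MAP kinases, and in macrophages they are induced by CSF1 and by Toll-like receptor ligands. Many of their mRNAs are short-lived and carry AU-rich elements in the 3'UTR, to which ELAVL1 and other proteins bind, and 3'UTRs are also where most miRNAs pair through their seed.

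AGO2, the protein that holds miRNAs on their targets, was read by PAR-CLIP. Cells take up 4-thiouridine, crosslinked uridines are read as C, and overlapping reads are joined into groups, each with a read count and a count of T-to-C conversion events. The 10 genes held 40 of the 22109 3'UTR groups in WT and 35 of the 17420 in KO. Fos stood apart from the rest, with 31686 of the 32271 3'UTR reads of the 10 genes in WT and 26923 of 27342 in KO. By 3'UTR reads Fos ranked 4 among 6058 genes with such a group in WT and 2 among 5559 in KO. In WT a single Fos group, chr12:86817712-86817857 on the plus strand (build mm9), held 30011 reads over 146 bases, 94.7% of the 3'UTR reads of the gene, with 19 conversion locations and 28479 conversion events. The KO library resolved the same stretch into 4 groups that together held 24905 reads over 141 bases. The group at chr12:86817745-86817769 alone held 23370 of them in 25 bases, with 6 conversion locations and 22159 events, and is shown because it carried 86.8% of the Fos 3'UTR reads in KO.

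Fos, heaviest KO group, chr12:86817745-86817769, +: ttttctcatagcactaactaatctg

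No stretch of those 25 bases, as deposited, matched the seed of any of the 369 listed miRNAs that have a RefSeq sequence, either over 7 bases or over 6. A 7-base match means the reverse complement of miRNA bases 2 to 8, or of bases 2 to 7 followed by an A. Among 3'UTR groups of at least 1000 reads, 67.7% in WT (128 of 189) and 70.2% in KO (92 of 131) held a 7-base match to one of the 50 most abundant miRNAs, of which 47 have a sequence. Group length was not taken into account there, and a longer group has more room for a match. In WT the Fos stretch counts among the 128, since its 146-base group holds a miR-29a-3p match. The absence of these letters says nothing about other ways in which AGO2 could be held there. The sequences of overlapping WT and KO groups were the same at all 564114 bases compared, with 0 differing, so the letters above do not differ between the libraries through conversion. That does not show that each letter is the genomic one, and no genome was at hand to check it.

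Some of the other Fos groups did hold seed matches, and these sites are shown because they are the seed matches of the gene. Groups without a match also held reads, among them 1 of 873 reads in KO and 1 of 205 in WT. Capitals mark the bases that pair with the seed and, where an A follows them, that A as well.

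Fos, miR-29a-3p match, chr12:86817783-86817812, +: tggaattaaccTGGTGCTggattgtatcta
Fos, miR-101b-3p match in WT, chr12:86817932-86817961, +: gctatatccatgTACTGTAgtccttcagcg
Fos, miR-181a-5p and miR-181b-5p match in WT, chr12:86818000-86818028, +: aggtggtcTGAATGTtctgacattaacag
Fos, miR-221-3p and miR-222-3p match in WT, chr12:86817602-86817623, +: cttccagagATGTAGCAaaaac

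The mature miRNAs are given below from RefSeq (build GRCm38.p6) with bases 2 to 8 in capitals, so that each seed can be read against its site. miR-181a-5p and miR-181b-5p share 1 seed, as do miR-221-3p and miR-222-3p.

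miR-29a-3p: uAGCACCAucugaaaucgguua
miR-101b-3p: gUACAGUAcugugauagcu
miR-181a-5p: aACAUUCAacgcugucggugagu
miR-221-3p: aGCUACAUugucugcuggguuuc

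In WT the miR-29a-3p match lay inside the 146-base group, so its own share of the 30011 reads cannot be read from the table. In KO it lay in a group of its own with 580 reads. The group with the miR-101b-3p match held 1304 reads in WT and 1573 in KO, and the group with the miR-181 match held 90 and 150. The miR-221-3p match, the only one at Fos with 8 paired or adjoining bases (bases 2 to 8 followed by an A), had 19 reads in WT and no listed group in KO. Of these miRNAs miR-29a-3p was the most abundant, at 5554 and 5891 CPM (counts in 1000000) in the WT small RNA libraries and 7334 and 5253 in the KO ones. For miR-101b-3p the values were 962 and 915 against 1052 and 1169. As labelled, the small RNA libraries put genotype and number sets together, and their effects cannot be told apart there. The file of the library labelled KO 4 carries a KO 2 heading over its second value column, and it was used under its sample label. Were it KO 2, the confounding with the number sets would be partial.

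**Figure D1:**
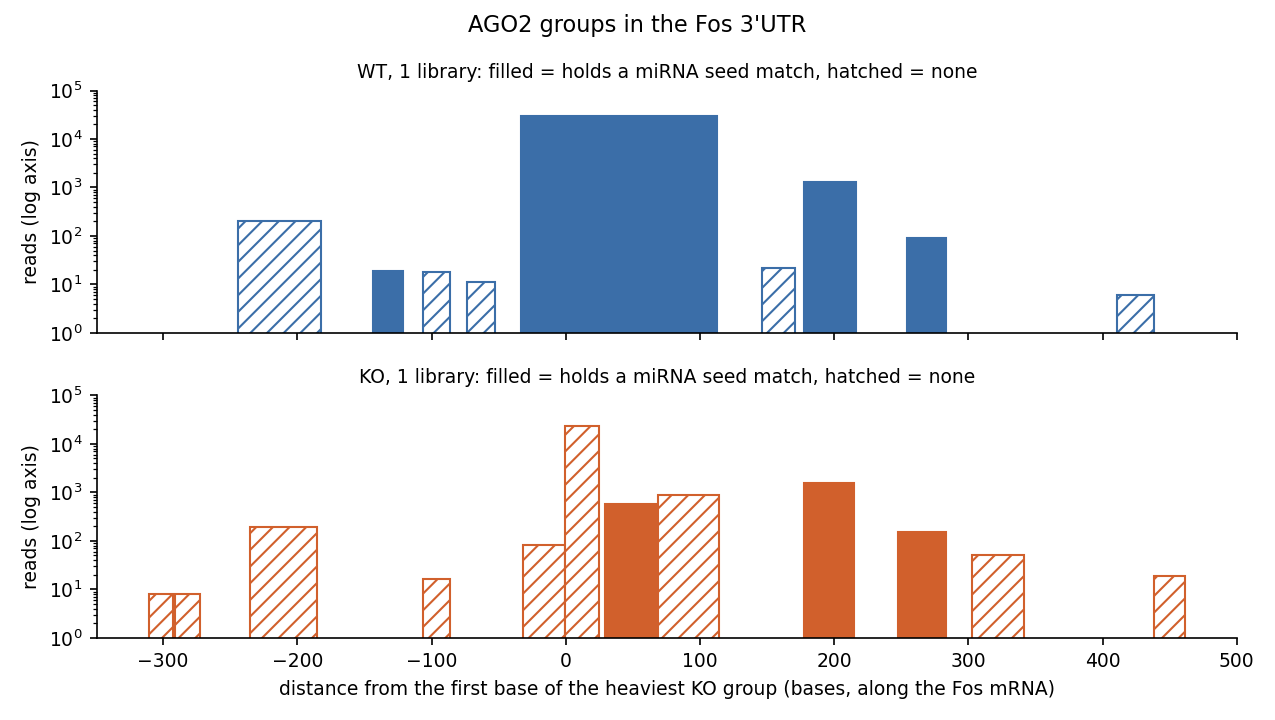
AGO2 groups in the Fos 3'UTR by distance in bases from the start of the heaviest KO group (x axis), with reads per group on a log axis, WT above and KO below, 1 library each. Filled bars hold a seed match in the deposited letters and hatched bars hold none. The 25-base KO group at distance 0 with 23370 reads holds none, and in WT it lies inside the 146-base group of 30011 reads.

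Relative to all reads in groups, Fos had 5039 RPM (reads in 1000000) in its 3'UTR in WT and 4177 RPM in KO, a ratio of 0.829 (95% interval 0.816 to 0.843, counting error only). With 1 library per genotype there is no replicate error, so the ratio compares these libraries and not the genotypes. The covered length was nearly equal, 391 bases in WT and 383 in KO, at 81.0 and 70.3 reads per base. Scaled to reads in 3'UTR groups the Fos ratio was 0.993 (0.977 to 1.01), and without the groups named Vmp1, the host gene of miR-21, it was 1.17 (1.15 to 1.18), so its direction turned with the scaling. Within Fos the sites did not share 1 ratio. On the first scale it was 0.810 (0.796 to 0.823) for the heaviest stretch, 1.18 (1.09 to 1.27) for the miR-101b-3p group and 1.63 (1.24 to 2.14) for the miR-181 group. Conversion events made up 94.1% of Fos 3'UTR reads in WT and 93.0% in KO, against 79.3% and 64.7% over all 3'UTR groups.

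The other members had between 0 and 249 3'UTR reads in either library. Fosl2, a FOS-related protein, had 249 reads in 11 groups in WT and 112 in 7 groups in KO, a ratio of 0.439 (0.348 to 0.551). For Jun the reads were 103 in 6 groups and 43 in 3 groups, a ratio of 0.407 (0.278 to 0.587). For Atf3, a stress-induced ATF protein, they were 99 in 5 groups and 58 in 3 groups, a ratio of 0.572 (0.406 to 0.798). Those 3 genes had fewer reads in KO, over fewer covered bases. Fosl2 went from 295 to 179 bases, Jun from 150 to 62 and Atf3 from 134 to 61. Their reads per base were 0.844 and 0.626, 0.687 and 0.694, and 0.739 and 0.951. Over all 3'UTR groups the covered length was also smaller in KO, 585851 bases in WT and 437088 in KO, at 3.01 and 3.45 reads per base. Junb had 45 and 63 reads (ratio 1.37, 0.917 to 2.05) over 78 and 80 bases at 0.577 and 0.787 reads per base. For Egr2 the reads were 89 and 115 (ratio 1.26, 0.948 to 1.68) over 109 and 93 bases at 0.817 and 1.24. These ratios count reads with and without a conversion event. Over the members without Fos, events made up 91.5% of 3'UTR reads in WT and 69.9% in KO, beside 79.3% and 64.7% over all 3'UTR groups. The shares were 94.8% and 66.1% for Fosl2, 100% and 53.5% for Jun, and 76.8% and 29.3% for Atf3. For Junb they were 84.4% and 57.1%, and for Egr2 92.1% and 100%. Fosb and Egr1 had no listed 3'UTR group in WT and 1 each in KO, of 15 and 13 reads. Jund and Egr3 had none in either library, and the files list only groups of at least 5 reads.

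Of the 6 members with at least 20 3'UTR reads over both libraries, 2 were past 2-fold lower in KO (Fosl2 and Jun) and 0 were past 2-fold higher. Among 5559 genes with that many reads, 31.5% were past 2-fold lower and 14.3% past 2-fold higher, so the members' counts are close to the background. Scaled to 3'UTR reads, Fosl2 stood at 0.526, just inside 2-fold, and Jun at 0.488, and without the Vmp1 groups they stood at 0.617 and 0.573, with neither past 2-fold. Without Fos, the ratio over the remaining members was 0.699 (0.615 to 0.794) relative to all reads in groups. Scaled to 3'UTR reads it was 0.837, and without the Vmp1 groups 0.982 (0.864 to 1.12), so the lower value depended on the scaling. Without the Vmp1 groups Atf3 stood at 0.803 (0.571 to 1.12). Junb stood at 1.92 (1.29 to 2.88) and Egr2 at 1.77 (1.33 to 2.36) on that scale, higher in the KO library beyond counting error.

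Seed matches were found in 15 of the members' 75 3'UTR groups, 9 of 40 in WT and 6 of 35 in KO. Over all 3'UTR groups the shares were 26.8% in WT and 27.1% in KO. Matches of 8 bases were in 6 of the 75 groups, beside 7.41% of all 3'UTR groups in WT and 7.6% in KO. Fos held 7 of the 15 groups, Fosl2 4, Atf3 3 and Fosb 1, and Jun, Junb, Egr1 and Egr2 held none. The Fosl2, Fosb and Atf3 sites are shown because they are the members' matches outside Fos that had at least 10 reads.

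Fosl2, miR-16-5p and miR-15a-5p match in WT, chr5:32460056-32460081, +: aagcttggtaggagctTGCTGCTAtg
Fosl2, miR-30 family match in WT, chr5:32459254-32459283, +: ttatttattttaaaTGTTTACAtttctttg
Fosb, miR-27b-3p and miR-27a-3p match in KO, chr7:19889268-19889290, -: tggagcgctttatACTGTGAAtg
Atf3, miR-93-5p and miR-17-5p family match in WT, chr1:192994386-192994415, -: ttaatgGCACTTTtgtcttgtagctatttt
Atf3, miR-21a-3p match in WT, chr1:192994892-192994921, -: ctttctagaaaataTGCTGTTctgtcccag

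The miRNAs that fit them, each the most abundant of its seed with a sequence in the table, are these, again with the seed in capitals.

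miR-16-5p: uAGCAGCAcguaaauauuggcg
miR-30e-5p: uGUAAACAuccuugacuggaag
miR-27b-3p: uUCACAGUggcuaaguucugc
miR-93-5p: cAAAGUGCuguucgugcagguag
miR-21a-3p: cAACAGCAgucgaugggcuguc

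The miR-16-5p site of Fosl2 and the miR-93-5p site of Atf3 were the ones present in both libraries. The Fosl2 group held 40 reads in WT and 20 in KO, all with a conversion event. That of Atf3 held 37 reads with 37 events in WT and 19 reads with 0 events in KO. The miR-30 match of Fosl2 (10 reads) and the miR-21a-3p match of Atf3 (18 reads) had no KO group at the site, and the miR-27b-3p match of Fosb (15 reads) had no WT group. At these counts a site can drop out of a list that starts at 5 reads, and presence in 1 library was not tested.

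AU-rich letters were searched as ATTTA on the strand of the mRNA. They occurred in 5 of 40 WT and 3 of 35 KO member groups, beside 7.48% and 6.33% of all 3'UTR groups. A run of TTTTT occurred in 2 and 1 member groups, beside 11.0% and 9.83%. Fos had 1 ATTTA group, seen in KO with 51 reads and printed because it overlaps tandem copies of the motif.

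Fos, ATTTA group in KO, chr12:86818049-86818078, +: attgtgttttcaATTTAtttattaagatgg

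A conversion event was present in 38 of 40 WT and 27 of 35 KO member groups, against 86.9% and 81.6% of all 3'UTR groups. Groups that overlapped a group of the other genotype numbered 15 of 40 in WT and 18 of 35 in KO, beside 40.7% and 52.1% of all 3'UTR groups. Fos contributed 5 of the 15 and 8 of the 18, and Jun contributed 0 to either: its 6 WT and 3 KO groups lay at different positions. Outside the 3'UTR, Fos had 376 reads in coding sequence in WT and 228 in KO. It also had an intron group of 6 and 123 reads, with 0 conversion events in either library. Junb had 135 and 141 reads in coding sequence, and Egr2 had 68 and 17 in its 5'UTR, with 38 and 0 conversion events.

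Level of mRNA did not order the members in the same way. On the deposited RPKM scale, which divides by gene length, Jund was the highest in WT at 156 ± 69.3 RPKM (SD, n = 4), followed by Atf3 at 114 ± 16.2, Junb at 86.9 ± 14.0, Jun at 42.3 ± 9.22 and Fos at 19.9 ± 11.4. Below them came Fosl2 at 10.1 ± 1.70, Egr1 at 3.45 ± 0.556, Egr2 at 2.65 ± 2.27, Egr3 at 0.754 ± 0.348 and Fosb at 0.0861 ± 0.0577. In KO the order was the same by mean, from 158 ± 69.0 for Jund to 0.130 ± 0.0391 for Fosb. Some neighbours did not separate. Jund was above Atf3 in 4 of the 8 libraries, Fos above Fosl2 in 6 and Egr1 above Egr2 in 6, whereas Junb was above Jun, Jun above Fos and Fosl2 above Egr1 in 8 of 8 libraries. Fos had 253 AGO2 3'UTR RPM for each RPKM of mRNA in WT and 189 in KO, ranking 15 of 4891 and 15 of 4458 genes above 1 RPKM, where the medians were 1.09 and 0.921. Atf3 was at 0.138 and 0.0838 and Junb, in WT, at 0.0823, below those medians, and Egr2 was at 5.35 and 6.32, above them. The PAR-CLIP and mRNA values come from different libraries, and length of the 3'UTR was not taken into account.

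**Figure D2:**
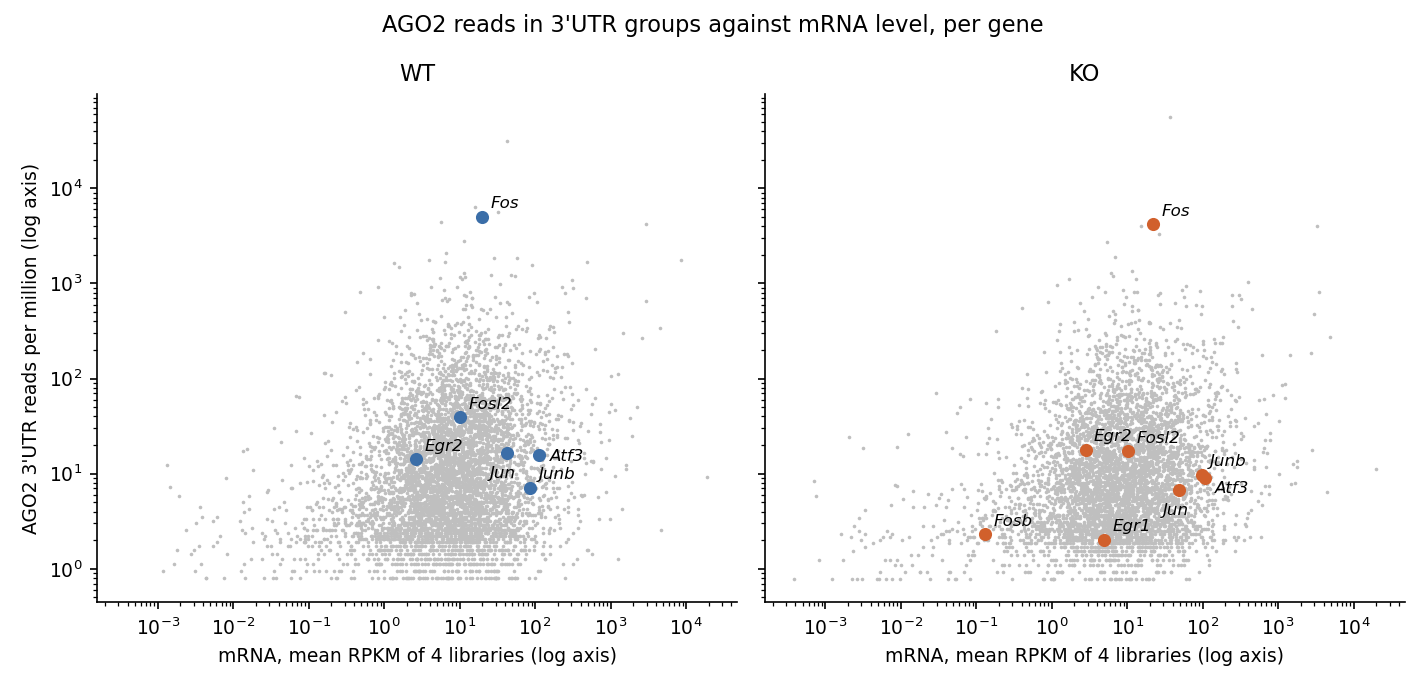
AGO2 3'UTR reads in RPM (y, log axis, 1 library per genotype) against the mean mRNA RPKM of 4 libraries (x, log axis) for each gene with both values. Named points are members with a 3'UTR group. Fos, near 20 RPKM, lies at 5039 RPM in WT and 4177 RPM in KO, while Junb and Atf3, at higher RPKM, lie below 20.

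The mRNA libraries held 8160789 to 25030262 counts. The markers of macrophages were all present (8 of 8 above 1 CPM, summed 12685 to 24813 CPM). Elavl1 mRNA did not mark the genotypes: it was 63.5 ± 2.00 CPM in WT and 69.5 ± 6.13 in KO (SD, n = 4 each), and the counts cover the whole gene, so RNA left from a floxed allele can be counted. Lyz2, into which Cre is inserted, was 12428 ± 2555 CPM in WT and 5067 ± 1004 in KO, lower in 4 of 4 number pairs (blocked adjusted p = 0.000472, edgeR). Libraries parted by number rather than genotype, with numbers 3 and 4 of both genotypes apart from numbers 1 and 2, so member values are given with their number. The total counts were 8160789 to 19547964 for numbers 1 and 2 and 22920606 to 25030262 for numbers 3 and 4. The labels do not say what a number stands for, and the p-values below reflect the spread among these libraries, which may be technical.

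Knockout changed none of the members past the threshold. By edgeR's quasi-likelihood test without a block, 0 of 10 members and 0 of 14019 genes (0%) passed an adjusted p of 0.05, with 81 genes (0.578%) and 0 members at an unadjusted p under 0.05. DESeq2 called 3 genes (0.0214%), none a member. With the number as a block, edgeR called 5 genes (0.0357%) and DESeq2 82 (0.585%), again with 0 members. At an unadjusted p under 0.05 the blocked fits held 2 members each (Jun and Egr1 by edgeR), beside 9.42% of genes by edgeR and 6.26% by DESeq2. All 10 members passed the filter on low counts. Their median log2 difference, KO minus WT, was 0.16, beside a median of 0.00 over all genes, and 9 of 10 estimates were above 0, beside 49.6% of all genes. No member had all KO libraries above all WT libraries (0.35% of genes) or below them (0.435%).

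Within the FOS family, Fos was at 19.5, 30.5, 68.9 and 72.5 CPM in WT 1 to 4 and at 21.7, 35.8, 66.2 and 88.2 in KO 1 to 4. Numbers 3 and 4 were high and numbers 1 and 2 low in each genotype, and the genotypes overlapped fully. The log2 difference was 0.15 (SE 0.52, edgeR adjusted p = 0.9999), and the SE fell to 0.09 with the block (adjusted p = 0.634). Fosl2 was at 29.2, 33.2, 21.3 and 25.4 CPM in WT and 29.4, 30.7, 24.9 and 26.0 in KO. Its difference was 0.03 (SE 0.17). Fosb, a FOS paralog that is strongly inducible, was near the floor of the count table, at 0.0934 to 0.623 CPM in WT and 0.382 to 0.691 in KO, and at that level no change was detectable.

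In the JUN family, Jun, the founding member and strongest activator of the family, came closest to a shift. It stood at 319, 254, 198 and 208 CPM in WT 1 to 4 and at 358, 285, 255 and 234 in KO. The KO library was higher in 4 of 4 number pairs, by 0.16 to 0.36 on the log2 scale, while 9.52% of all genes were higher in all 4 pairs. The blocked log2 difference was 0.22 (SE 0.07), and it did not pass the threshold (edgeR adjusted p = 0.383). Junb, which can restrain Jun, was at 119, 116, 80.4 and 98.0 CPM in WT and 132, 110, 114 and 110 in KO, higher in KO in 3 of 4 pairs, with a blocked difference of 0.19 (SE 0.09, adjusted p = 0.566). Jund, the constitutively expressed JUN protein, was at 368, 465, 185 and 185 CPM in WT and 404, 445, 174 and 198 in KO. Its KO and WT values lay side by side within each number, and the blocked difference was 0.02 (SE 0.08).

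Atf3 was the member with an estimate below 0. It was at 225, 217, 264 and 280 CPM in WT and 209, 204, 275 and 240 in KO, lower in KO in 3 of 4 pairs, and the blocked difference was -0.09 (SE 0.08, adjusted p = 0.727).

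Among the EGR genes, Egr1 had the most uneven response between numbers. It was at 13.3, 9.62, 12.1 and 13.5 CPM in WT 1 to 4 and at 9.17, 12.4, 27.5 and 20.8 in KO. KO 3 and KO 4 were above every WT library, whereas KO 1 was below all of them. The blocked log2 difference was 0.49 (SE 0.21, adjusted p = 0.502). The difference of the knockout effect between numbers 3 and 4 and numbers 1 and 2 was 0.99 (SE 0.35), and with an edgeR adjusted p of 0.9998 it did not pass. No gene passed that interaction test (0 of 14019, 0%), with 133 genes (0.949%), Egr1 among them, at an unadjusted p under 0.05. Egr2, which macrophages express during differentiation, was at 3.46, 5.98, 28.9 and 31.6 CPM in WT and 5.99, 7.53, 37.7 and 23.5 in KO, with a blocked difference of 0.16 (SE 0.17). The 4 low libraries were numbers 1 and 2 of both genotypes. Egr3 ranged from 0.684 to 1.96 CPM in WT and from 1.02 to 2.24 in KO, and its blocked difference was 0.54 (SE 0.30, adjusted p = 0.604).

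**Figure D3:**
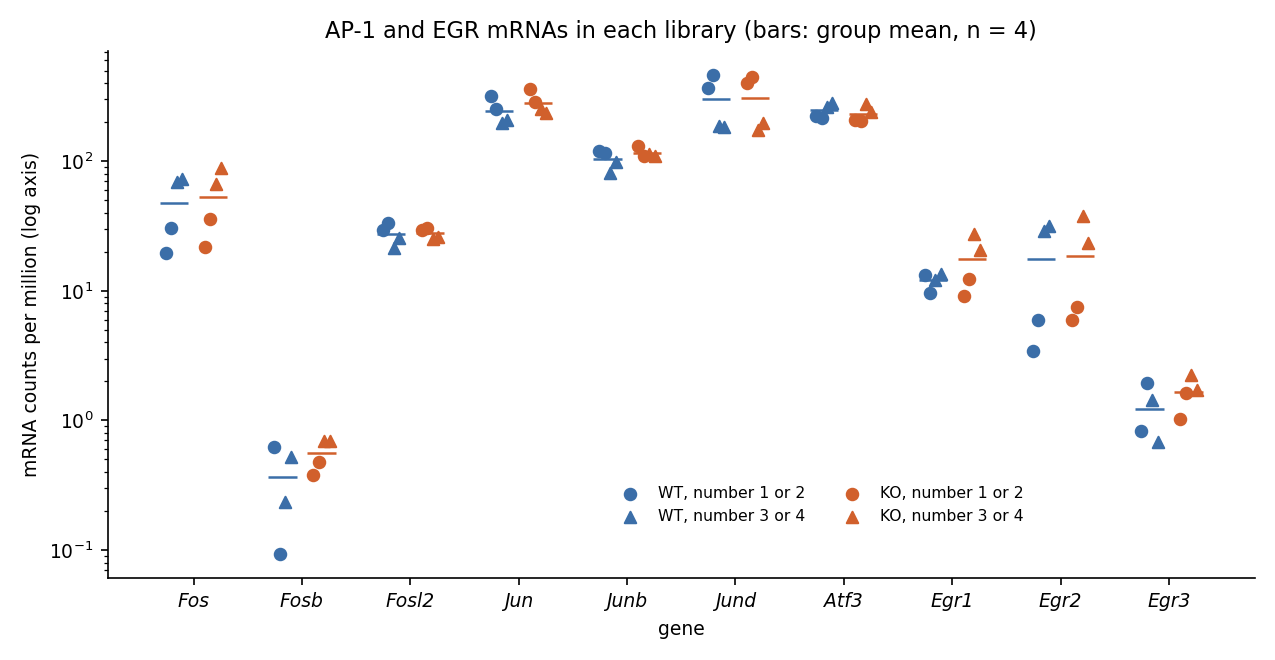
CPM values (y, log axis) of the 10 genes in each mRNA library, WT in blue and KO in orange, circles for numbers 1 and 2 and triangles for numbers 3 and 4, with bars at the mean of 4 libraries. For Fos and Egr2 the triangles lie above the circles in each genotype and for Jund below them, while the genotype means lie side by side.

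Between the number sets several members differed by more than between genotypes, Egr2, Fos and Jund most of all, whereas for Fosb and Egr3 the estimate between genotypes was the larger. In an edgeR fit with genotype as a term, 7 of 10 members passed an adjusted p of 0.05, beside 51.2% of all genes (7181 of 14019), so the count of members is not far from the background. The sets are the numbers by which the small RNA libraries split by genotype, and these mRNA libraries had already been seen to part there. The p-values therefore describe how far the sets differ and are no independent test that they do. On the log2 scale Egr2 was higher in numbers 3 and 4 by 2.42 (SE 0.23, adjusted p = 0.000114) and Fos by 1.46 (SE 0.19, adjusted p = 0.00046), with all 4 libraries of numbers 3 and 4 above all 4 of numbers 1 and 2. Atf3 was also higher without overlap, by 0.31 (SE 0.09, adjusted p = 0.0152), and Egr1 by 0.65 (SE 0.23, adjusted p = 0.0416). Of all genes tested 25.6% were called higher and 25.7% lower, and 25.1% were higher and 24.4% lower without overlap. Jund was lower by 1.18 on the log2 scale (estimate -1.18, SE 0.11, adjusted p = 9.3e-05), with no overlap between the sets. Jun was at -0.45 (SE 0.11, adjusted p = 0.0101) and Fosl2 at -0.33 (SE 0.11, adjusted p = 0.028), the latter also without overlap. Junb, at -0.25 (adjusted p = 0.0848), Fosb and Egr3 were not called. The Egr1 call was lost without KO 1, KO 2, KO 3, KO 4, WT 2 or WT 4 (adjusted p up to 0.109). That of Fosl2 was lost without KO 2, KO 3, KO 4, WT 2 or WT 3 (up to 0.075), and with no filter on low counts (0.082). That of Atf3 was lost without KO 3 (0.0576). Junb gained a call without KO 2 (adjusted p = 0.037). The calls of Egr2, Fos, Jund and Jun held without each library in turn.

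**Figure D4:**
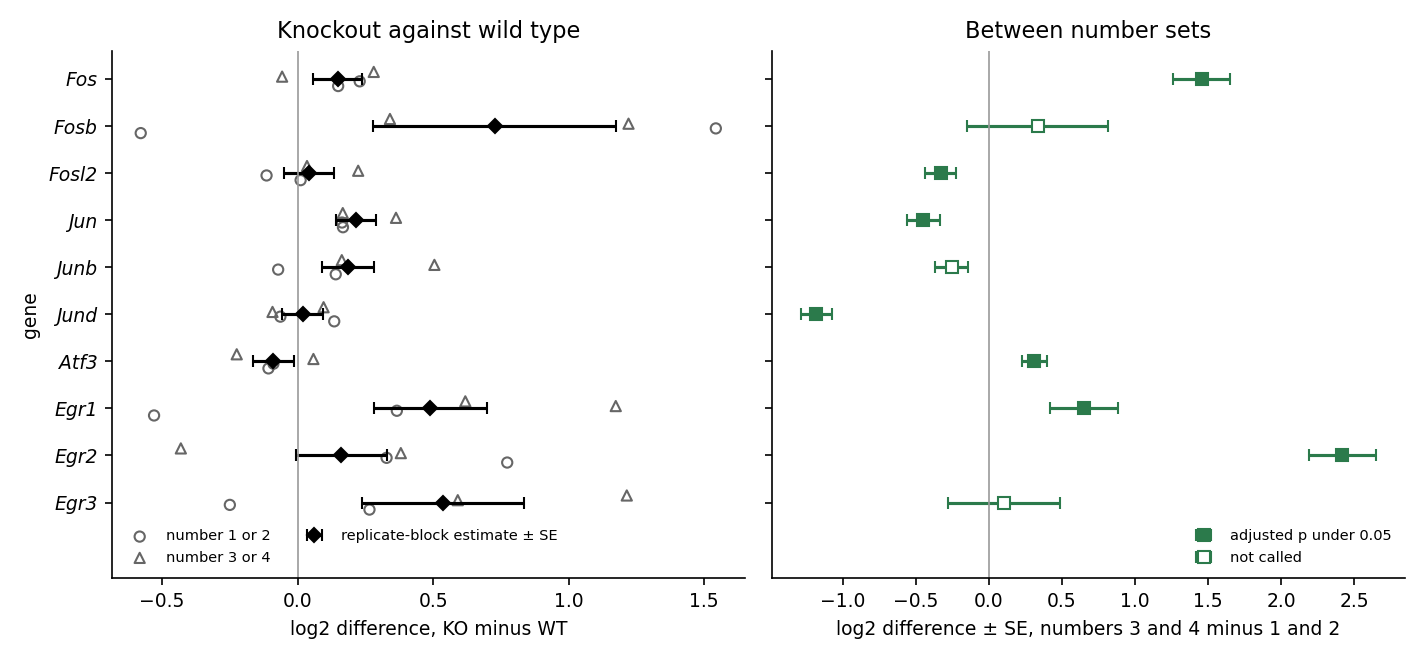
Log2 differences of the 10 genes. On the left, KO minus WT for each number (open symbols) with the blocked estimate and its SE (diamonds). On the right, numbers 3 and 4 minus numbers 1 and 2 with the SE, filled where the adjusted p is under 0.05. The axes differ in range: Egr2 reaches 2.42 and Jund -1.18 on the right, while blocked estimates on the left lie between -0.09 and 0.73.

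Some markers of other cells differed between the number sets. Of 12 fibroblast or stromal markers, 10 were above 1 CPM in some library and 9 of the 10 tested were higher in numbers 3 and 4. Their summed level was 2.95 to 9.27 CPM in numbers 1 and 2 and 11.8 to 84.0 in numbers 3 and 4, with Lum and Thy1 below 1 CPM throughout. Mast cell or basophil markers (3 of 5 above 1 CPM) summed to 1.59 to 4.20 and 9.42 to 14.0 CPM, with Cpa3 and Ms4a2 below 1 CPM. The neutrophil markers overlapped, at 11.9 to 70.7 and 41.3 to 61.5 CPM. The T cell list rested on Cd4 alone, since Cd3e, Cd3d, Cd3g and Cd8a stayed below 1 CPM. Endothelial markers (3 of 5 above 1 CPM, Tek and Emcn below it) summed to 19.8 to 34.4 and 39.6 to 63.5 CPM, but did not move together. Of the 3 tested, 1 was called higher and 1 lower in numbers 3 and 4. Kdr was at 2.69 to 4.46 and 22.5 to 38.4 CPM, whereas Pecam1 was at 16.6 to 28.9 and 15.3 to 20.9. B cell markers (2 of 5 above 1 CPM) summed to 42.3 to 54.2 and 27.1 to 32.0 CPM, mostly from Cd79b. By genotype the stromal sums overlapped, at 4.76 to 45.0 CPM in WT and 2.95 to 84.0 in KO. All 10 stromal markers tested had an estimate above 0 for KO minus WT (median log2 difference 1.03, 1.14 with the block), with 0 called. Their sum was 68.4 and 84.0 CPM in KO 3 and KO 4 and 11.8 and 45.0 in WT 3 and WT 4, so the KO libraries in which Egr1 was above every WT library were also those with the highest stromal sums. The part of stromal RNA in the Egr1 values was not tested. The part of these cells, or of depth, in the members' differences between sets was not tested, and fewer cells of a type and less RNA per cell cannot be told apart in such libraries.

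The pathways around these factors were read from lists, in which the knockout test without a block called 0 genes and the blocked test 1. Of 12 other AP-1 dimer partners 11 were tested and 0 were called by genotype (median log2 difference -0.03), while 6 were lower and 0 higher in numbers 3 and 4. Batf3, a partner of JUN proteins in dendritic cells, was among the 6: it was 16.7 ± 10.5 CPM in WT and 17.7 ± 11.5 in KO (SD, n = 4 each), and lower in numbers 3 and 4 by a log2 difference of -1.78 (adjusted p = 5.02e-05). Of 4 EGR relatives and NAB proteins, which bind EGR factors and repress them, Nab1 and Nab2 were tested. Nab1 was lower in KO in 4 of 4 pairs, as were 8.29% of all genes (71.6 ± 21.3 and 62.3 ± 15.1 CPM, blocked difference -0.19, SE 0.09, adjusted p = 0.540), and Nab2 was at 72.9 ± 11.1 and 71.6 ± 14.5 CPM.

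Upstream of Fos and Egr1, which are driven by serum response factor with its ternary complex partners, 0 of 8 factors were called by genotype (median 0.09), and 1 was higher and 4 lower in numbers 3 and 4. Srf was at 82.7 ± 36.5 CPM in WT and 103 ± 47.6 in KO. It was higher in 4 of 4 pairs, as were 9.52% of all genes (blocked difference 0.28, SE 0.10, adjusted p = 0.398). Elk4, a ternary complex factor, was at 14.8 ± 2.88 and 19.3 ± 5.94 CPM (0.36, SE 0.12, adjusted p = 0.356). Of 16 MAP kinase genes 0 were called (median 0.05), with 2 higher and 6 lower in numbers 3 and 4. Map3k1, a kinase upstream of JNK, which phosphorylates JUN, was at 131, 139, 125 and 119 CPM in WT and 170, 165, 156 and 149 in KO. Its genotypes did not overlap, as for 0.35% of genes in that direction, and the blocked difference was 0.32 (SE 0.07, adjusted p = 0.171), short of the threshold.

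Other immediate early genes gave a similar picture, with 0 of 30 called by genotype (median 0.01) and 9 higher and 8 lower in numbers 3 and 4. Zfp36, whose protein destabilises AU-rich mRNAs, was at 151 ± 28.7 CPM in WT and 194 ± 46.0 in KO. It was higher in 4 of 4 pairs, as were 9.52% of all genes (blocked difference 0.35, SE 0.08, adjusted p = 0.202). Dusp1, a phosphatase that switches off MAP kinases, was at 54.6 ± 21.4 and 44.3 ± 17.9 CPM. It was lower in 4 of 4 pairs, as were 8.29% of all genes (-0.30, SE 0.08, adjusted p = 0.276). In the list of reported AP-1 or EGR targets 14 of 15 genes were tested and the median log2 difference was -0.33, with 11 of the 14 estimates not above 0. Over all genes the median was -0.0017, and 49.6% of estimates were above 0. A shift of the list as a whole was not tested. Mmp9, a matrix metalloproteinase, went the other way and was the only call under the block. It was at 58.5, 19.4, 8.66 and 7.65 CPM in WT and 118, 28.8, 19.3 and 15.2 in KO, higher in 4 of 4 pairs (blocked log2 difference 0.94, SE 0.11, adjusted p = 0.0152), and not called without the block (adjusted p = 0.9999). Between number sets 7 of the 14 were higher and 1, Mmp9, was lower (log2 difference -2.17), with a median of 0.88.

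The genes of at least 10 CPM whose pattern over the 8 libraries was most like that of Fos, once the mean of each number set was removed, were Gm13050 (r = 0.987), Gm11224 (r = 0.982), Rabl6 (r = 0.980), Arsb (r = 0.980) and Inpp5k (r = 0.978), among 8892 compared. For Egr1 they were Tcf4 (r = 0.952), Pdia6 (r = 0.944), Ssbp3 (r = 0.916), Lonp2 (r = 0.908) and Scrn3 (r = 0.906). Among the members themselves Fos went most closely with Jund (r = 0.899) and Jun with Junb (r = 0.780). These r values describe 8 libraries that share depth and number sets, and with so many genes compared high values are to be had from few libraries.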

How the data were processed

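The members and the gene lists were chosen with earlier results of these data known. For each mRNA library the authors deposited raw counts beside RPKM values, by Ensembl gene and per the file headers. They also deposited counts per mature miRNA and, for each PAR-CLIP group, counts of reads, conversion locations and conversion events. The submitters' processing notes name CASAVA 1.8.2, Bowtie 0.12.7 and mm9. How genes were counted, whether strand was used, and which program built the groups is not given in the sources used here. Positions are printed as deposited, and without a genome it could not be settled whether they start at 0 or 1. Symbols matched 19328 of 21444 Ensembl identifiers.

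Counts were tested with edgeR 4.0.16 (R 4.3.3, quasi-likelihood, TMM scaling, filterByExpr, Benjamini-Hochberg over all genes tested) and with DESeq2 1.42.0 as an alternative, after a check on simulated data. CPM values were computed from the counts with the TMM-scaled library sizes, and log2 differences of single number pairs from CPM with 2 reads added. The same-numbered libraries of WT and KO deviated together from their group means (r = 0.770, 0.810, 0.745 and 0.801 for numbers 1 to 4), so the number was used as a block. WT 4 with KO 3 (r = 0.832) and WT 3 with KO 4 (r = 0.764) went together as closely, so within numbers 3 and 4 the correlation shows the set and not the number. Genes named in the text are the 10 members, Elavl1 and Lyz2, the called genes of each list or else the 2 with the largest difference at 10 CPM or more, and the 5 genes most like Fos and Egr1. Some listed genes are not reported here. The seeds came from the 50 most abundant of 485 miRNAs. RefSeq sequences were found for 369 of the 485 and 47 of the 50, with 28 distinct seeds. miR-142-3p was matched to miR-142a-3p, and miR-378a-3p, miR-30d-5p and miR-23b-3p are named only. Groups overlapped when they shared at least 1 base on a strand (bedtools 2.31.1). Read intervals are exact at 95% and cover counting error only, since reads are not independent molecules.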

Additional observations from a re-analysis of the deposited data

How the results depend on the processing

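No member was called for genotype under any alternative run. Genes called, 0 by edgeR without a block, numbered 3 by DESeq2, 5 with the replicate block, 82 with the block in DESeq2, 14 in numbers 3 and 4 alone and 1 with the number set as a term, a fit added after seeing the data. Leaving out 1 number at a time under the block gave 4, 29, 7 and 3 calls for numbers 1 to 4. The block changed no call of a member. Small uncalled differences changed sign. Without 1 library and without a block, the log2 difference ran from -0.21 to 0.42 for Fos, -0.075 to 0.13 for Fosl2, -0.22 to 0.31 for Jund and -0.51 to 0.54 for Egr2. Leaving out 1 library makes the number sets uneven between the genotypes in such a fit. With the block and 1 number left out, the log2 difference ran from 0.092 to 0.23 for Fos and from 0.035 to 0.45 for Egr2. In numbers 1 and 2 alone it was -0.056 for Fosl2, -0.081 for Egr1 and -0.013 for Egr3, and in numbers 3 and 4 alone -0.0035 for Jund. Under the block it was -0.021 for Fosl2 without number 3, and -0.020 and -0.013 for Jund without numbers 1 and 4. Between number sets 4 (without KO 3) to 7 members were called, and the Egr3 difference ran from -0.064 to 0.46. The members' AGO2 ratio of 0.827 became 0.990 scaled to 3'UTR reads. In alternatives added after seeing the data it became 1.16 without Vmp1 and, relative to all reads in groups, 0.699 without Fos. With both Vmp1 and Fos left out it was 0.982. Groups with a seed match fell from 15 to 6 for 8-base matches and to 6 for the 20 most abundant miRNAs. The causes were not tested. Depth limits Fosb, Egr3 and the AGO2 3'UTR groups outside Fos, which had at most 52 reads each.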

Other observations

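The 25 bases of the heaviest Fos group came within 1 substitution of the 7-base match to miR-155-5p, a miRNA induced in activated macrophages. This was looked for after the group's sequence had been seen. The match letters are AGCATTA, and the group has T5C, with positions counted from 1 at the 5′ end of those 7 bases. A T read as C is also what conversion gives. This group has 6 conversion locations and 22159 events in 23370 reads, but these counts do not say whether a location lies at that base. The letters of overlapping WT and KO groups were the same at all 564114 bases compared. Without a genome it was not settled whether that C is in the gene or comes from conversion. Capitals mark the 7 bases in the group and the seed in the miRNA (RefSeq, build GRCm38.p6).

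Fos, heaviest KO group: ttttctcatAGCACTAactaatctg
miR-155-5p: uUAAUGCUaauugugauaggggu

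Of all 25-base 3'UTR groups, 2.58% in WT (46 of 1783) and 1.97% in KO (27 of 1370) held a stretch at 1 substitution from these letters. Those shares are for miR-155-5p alone, which was picked after the group was seen. The share of groups at 1 substitution from a match to any listed miRNA was not counted and would be larger, so these shares do not measure how rare the find is. In the small RNA libraries miR-155-5p ranked 73, at 351 and 376 CPM in WT 1 and WT 2 and 431 and 369 in KO 3 and KO 4. Pairing at this stretch was not tested.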
